A study of Bos taurus with 60 samples.

Results

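The miR-148 and miR-152 family was followed here through the intestine of 10 beef steers, as its 3 members in the deposited table, bta-miR-148a, bta-miR-148b and bta-miR-152, of 608 miRNAs listed. The members were taken by name, and the family was chosen by the CPM of bta-miR-148a, whose high duodenal level was already known, so the levels by region are given as a description without a test. The animals were British × Continental feedlot steers of 2 phenotypes, 5 super-shedders (SS), which had shed Escherichia coli O157 in feces at a high level, and 5 pen-mates without fecal E. coli O157 (non-shedders, NS). The phenotype was natural shedding, with no inoculation or drug, and at slaughter most SS steers were still positive but no longer at the super-shedder level. Each steer gave a tissue piece from 6 regions, namely the duodenum, the jejunum at an upper (proximal) and a lower (distal) site, the cecum, and the colon at its spiral and its descending part, each made into 1 small-RNA library, so every region held 5 SS and 5 NS libraries and the table held 60. Rectal libraries were not analysed here, and ages of the animals were not given in the sources used here.

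A miRNA is a short RNA that guides a silencing complex to messenger RNAs, which it finds mainly through its seed, the bases near its 5′ end. The members of the miR-148 and miR-152 family carry the same seed, are made from separate genes, and are known from human cells for repressing DNMT1, the maintenance DNA methyltransferase, and HLA-G, a class I histocompatibility molecule. In mammals miR-148a is abundant in the epithelium of the stomach and in liver and pancreas, and miR-152 is known from connective tissue and muscle as well. In the bovine RefSeq annotation of assembly ARS-UCD2.0, MIR148A lies on chromosome 4 between the protein-coding genes NFE2L3 and NPVF and overlaps no protein-coding gene. MIR148B lies on chromosome 5 within COPZ1, and MIR152 on chromosome 19 within COPZ2, genes for paralogous subunits of the coatomer, which coats vesicles of the Golgi. The annotated MIR148D (61 bases) lies within MIR148A (68 bases), and MIR148C (71 bases), whose synonym is bta-mir-2957, lies within MIR152 (86 bases). No count named for bta-miR-148c or bta-miR-148d was in the table, whereas bta-miR-2957 was, and it is described below as a neighbour of bta-miR-152. The mature members resemble each other, and how a read that fits more than one was counted is not given in the sources used here.

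Libraries held 535373 to 19346766 miRNA counts (median 1735054.5), and levels below are in CPM, the counts scaled to a common library total. In a bulk tissue piece, fewer cells of a type and less RNA per cell cannot be told apart. Pieces of intestinal wall were marked by smooth muscle and epithelium in all regions, with bta-miR-143 and the other 4 smooth muscle miRNAs summing to a median of 440440 to 562739 CPM by region and 8 epithelial miRNAs (miR-192, miR-194, miR-215 and the miR-200 family) to 73981 to 188215 CPM. Several libraries stood apart. The duodenum library of steer SS299 held 11827 CPM of bta-miR-122, the abundant hepatocyte miRNA, against 0 to 12.9 CPM in the other 9 duodenum libraries and at most 51.9 CPM in any other library, and it held 83791 CPM of bta-miR-143, against 172544 to 602117 CPM. The proximal jejunum, distal jejunum and descending colon libraries of the same steer held 1341, 2163 and 2508 CPM of bta-miR-192, the enterocyte miRNA, the lowest values of their regions. The descending colon library of steer SS274 held no count of bta-miR-152. It also held 692394 CPM of bta-miR-143, against at most 656649 CPM in the other libraries of its region. Its bta-miR-192 was 14750 CPM, against 2508 to 210228 CPM (median 60922) in those libraries.

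bta-miR-148a was by far the most abundant member, and the duodenum was its high point. It held 96.1 ± 2.17% of the family's counts (SD over 60 libraries, lowest 84.6%) and ranked between 2nd and 20th of the 608 miRNAs (median rank 8.5). bta-miR-148b ranked between 55th and 84th and bta-miR-152 between 58th and 391st, with median ranks of 72 and 105.5. In the duodenum bta-miR-148a had a median rank of 3, against medians of 8 to 9 in the other regions. The family as a whole took 5.59 ± 3.13% of the counts in the duodenum, and between 1.64 ± 0.718% and 1.91 ± 0.698% in the other regions (SD, n = 10 each).

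In the duodenum bta-miR-148a stood at 55814, 42401, 24094, 121661 and 66770 CPM in SS steers SS274, SS287, SS294, SS299 and SS310, and at 32906, 39953, 48738, 91833 and 25559 CPM in NS steers NS108, NS152, NS165, NS242 and NS745. The highest SS library was SS299, the one that carried bta-miR-122, and the phenotypes overlapped over most of their range. The mean of the duodenum was 54973 ± 31045 CPM (SD, n = 10), or 47563 ± 21600 CPM (n = 9) without the SS299 library. In order of level came the proximal jejunum (18364 ± 6990 CPM), spiral colon (18112 ± 4618 CPM), distal jejunum (16542 ± 5992 CPM), cecum (16003 ± 5692 CPM) and descending colon (15769 ± 6912 CPM), and neighbours among these 5 regions differed by less than their SD. Of the 10 duodenum libraries, 8 lay above the highest of the 50 libraries of other regions (29372 CPM), and 4 of those 50 lay above the lowest duodenum library (24094 CPM). The plot of all libraries shows the duodenum column of bta-miR-148a above the others for both phenotypes.

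**Figure D1:**
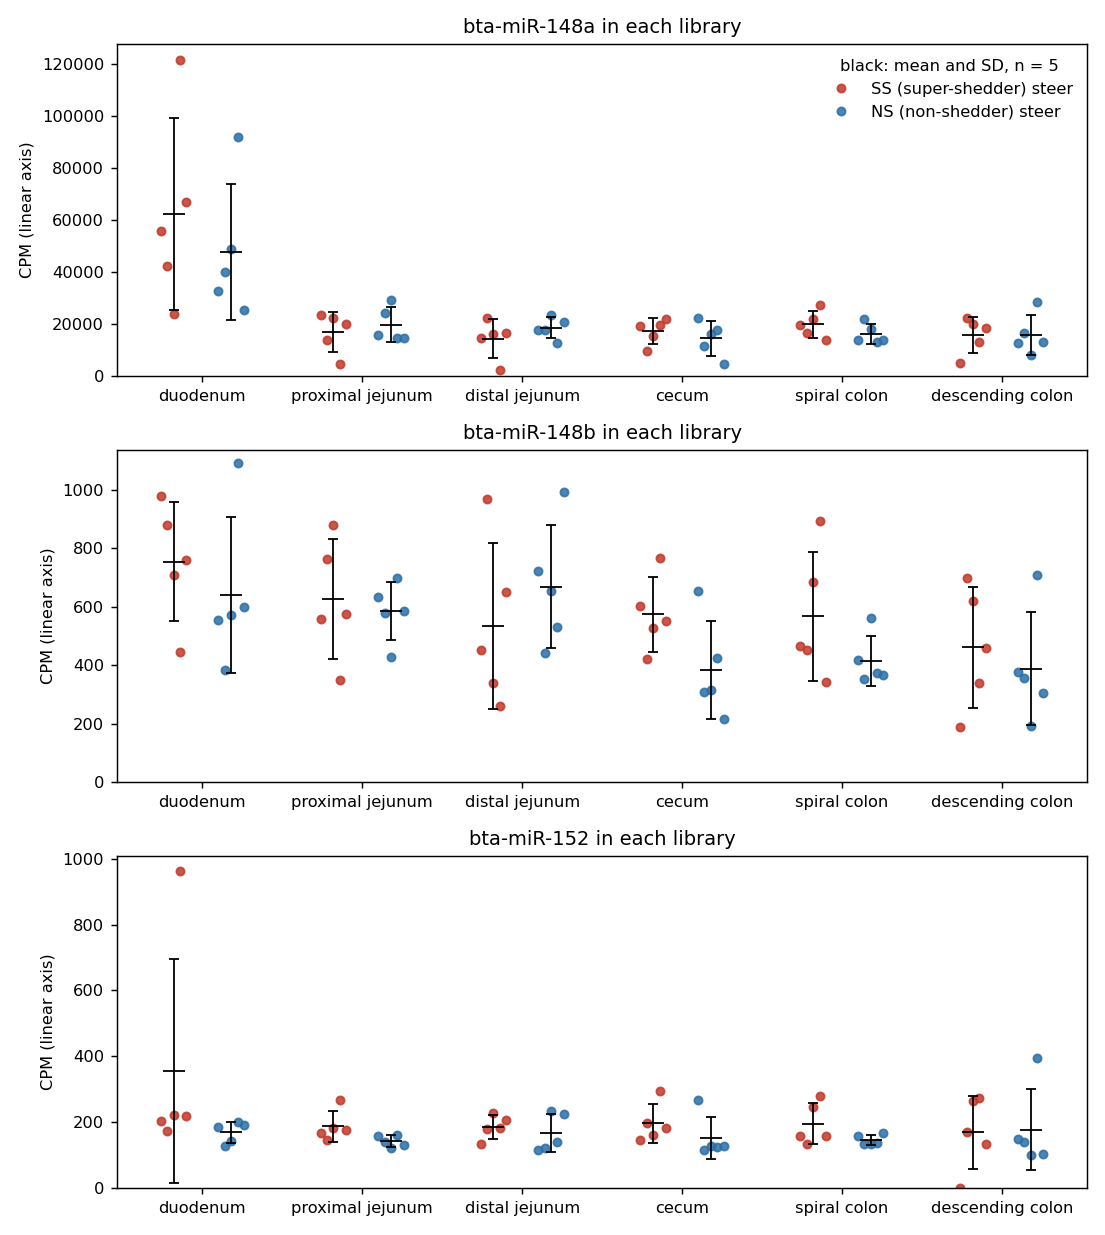
CPM of the 3 members in each of the 60 libraries by region, SS steers (red) left of NS steers (blue), with the mean and SD of 5 steers in black and linear axes from 0. bta-miR-148a lies between 24094 and 121661 CPM in the duodenum and at most at 29372 CPM elsewhere, while bta-miR-148b and bta-miR-152 overlap between regions; the highest bta-miR-152 point is the SS299 duodenum (961 CPM) and the point at 0 the SS274 descending colon.

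The duodenal peak of bta-miR-148a was present within each animal. In 10 of 10 steers the duodenum had the highest bta-miR-148a level of the 6 regions, on the CPM scale and also on the scale of trimmed-mean (TMM) normalized CPM, which removes the pull of a few dominant miRNAs. The median within-steer CPM ratio of the duodenum was 2.21 to the proximal jejunum, 2.16 to the distal jejunum, 3.24 to the cecum, 2.59 to the spiral colon and 2.91 to the descending colon. The size varied widely between animals. Steer SS294 had the flattest profile, with 24094 CPM in the duodenum and 15522 to 22246 CPM elsewhere, and steer SS299 the steepest, with a ratio of duodenum to distal jejunum of 50.1. That ratio joins 2 libraries that stood apart, since the SS299 distal jejunum had the lowest bta-miR-148a of all 60 libraries (2430 CPM) together with 2477 CPM of summed epithelial miRNAs, against 58739 to 321536 CPM in the other 9 distal jejunum libraries. The part of the SS299 tissue composition in these values was not tested. Without the SS299 duodenum library, the log2 ratio of the duodenum mean to the mean of the other regions was 1.49, against 1.70 with it.

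**Figure D2:**
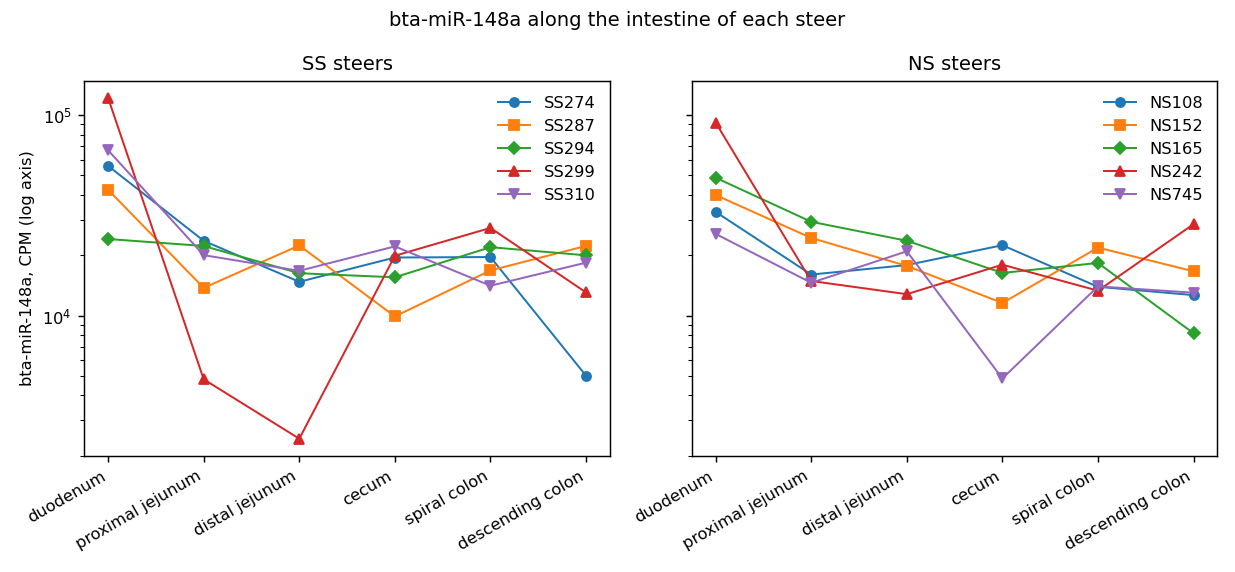
bta-miR-148a in CPM on a log axis along the 6 intestinal regions, 1 line per steer, with SS steers in the left panel and NS steers in the right. Every line is highest in the duodenum, and the SS299 line runs at 121661 CPM there and at 4809 and 2430 CPM in the proximal and distal jejunum.

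bta-miR-148b, the member encoded within COPZ1, had a shallower profile. Its mean was 696 ± 231 CPM in the duodenum, 604 ± 153 CPM in the proximal jejunum, 601 ± 246 CPM in the distal jejunum, 478 ± 173 CPM in the cecum, 490 ± 177 CPM in the spiral colon and 424 ± 193 CPM in the descending colon (SD, n = 10 each). Neighbours in the order of these levels differed by less than their SD. The duodenum lay above the descending colon in 10 of 10 steers and above the spiral colon in 9, but the highest region was the duodenum in only 3 steers and the distal jejunum in 4. On the TMM scale the duodenum lay above the descending colon in 7 of 10 steers. The lowest library held 187 CPM (SS274 descending colon) and the highest 1091 CPM (NS242 duodenum).

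bta-miR-152, the member encoded within COPZ2, had no regional peak. Its means lay close together in the proximal jejunum (165.02 ± 40.9 CPM), distal jejunum (176 ± 46.6 CPM), cecum (174 ± 62.2 CPM), spiral colon (170 ± 50.8 CPM) and descending colon (173 ± 111 CPM). The duodenum averaged 263 ± 247 CPM (n = 10), a value that 1 library carried: SS299 held 961 CPM, and without it the mean was 185 ± 32.1 CPM (n = 9). The highest CPM was in the duodenum in 3 steers, in the distal jejunum, cecum and descending colon in 2 steers each, and in the proximal jejunum in 1. By TMM CPM the descending colon was highest in 4 steers, the duodenum and cecum in 2 each, and the distal jejunum and spiral colon in 1 each. The duodenum lay above the descending colon in 7 steers by CPM and in 4 by TMM CPM. The log2 ratio of the duodenum to the other regions was 0.61 with all libraries and 0.11 without the SS299 duodenum.

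The proportion of bta-miR-148a to bta-miR-148b and to bta-miR-152 therefore differed between the duodenum and the other regions. There were 87.8 ± 69.3 counts of bta-miR-148a per count of bta-miR-148b in the duodenum (SD, n = 10), or 67.1 ± 24.2 (n = 9) without the SS299 library, against means of 28.5 to 38.5 in the other regions, and the ratio was highest in the duodenum in 9 of 10 steers, the exception having its highest ratio in the distal jejunum. The ratio of bta-miR-148a to bta-miR-152 was 249 ± 113 in the duodenum, or 262 ± 111 without the SS299 library, against 96.4 to 121 elsewhere, and was highest in the duodenum in 9 of 10 steers. The ratio of bta-miR-148b to bta-miR-152 showed no such shift in the duodenum, with a mean of 3.56 ± 1.43 there, or 3.90 ± 0.979 without the SS299 library. Its mean was 3.84 and 3.59 in the proximal and distal jejunum, and 2.79, 2.88 and 2.54 in the cecum, spiral colon and descending colon. Its maximum was in the duodenum in 3 steers, and the duodenum lay above each of these large intestine regions in 8 steers. These ratios are within a library and do not depend on how libraries were scaled, but a ratio between miRNAs also carries the unequal capture of each sequence in library preparation. The lowest ratios of bta-miR-148a to bta-miR-152 came from SS299, 13.3 in the distal jejunum and 17.96 in the proximal jejunum.

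On the log2 scale of TMM CPM, region accounted for 57.5% of the variance of bta-miR-148a over 60 libraries, the 2nd highest of 329 miRNAs compared, against a median of 14.0%. It accounted for 16.1% of the variance of bta-miR-148b and 4.82% of that of bta-miR-152. The steer accounted for 12.5%, 8.13% and 28.4% of the variance of bta-miR-148a, bta-miR-148b and bta-miR-152, against a median of 24.98%. Over 55 libraries, left without the 5 of SS299 and SS274 that stood apart, region accounted for 56.3%, 26.3% and 23.6% and the steer for 18.2%, 12.8% and 19.2% in the same order of members. The large share of region for bta-miR-148a was thus present with and without the libraries that stood apart. For bta-miR-152 the share of the steer was no longer the larger over the 55, which keep only 2 libraries of SS299. Over the 58 libraries left without the SS299 duodenum and SS274 descending colon, the steer accounted for 43.7% of its variance and region for 6.81%. Among themselves the members were weakly correlated over the 60 libraries (Pearson's r 0.27 for bta-miR-148a with bta-miR-148b, 0.23 for bta-miR-148a with bta-miR-152 and 0.23 for bta-miR-148b with bta-miR-152). Over the 58 libraries r was 0.41, -0.02 and 0.26 in the same order, and over the 55 it was 0.57, 0.27 and 0.18. Libraries of 1 steer share an animal, so these values are descriptions.

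Shedding phenotype was compared region by region, the question being whether miRNAs of the intestinal wall differ between super-shedding and non-shedding animals. None of the 3 members passed an FDR of 10% in any region by the quasi-likelihood test of edgeR. Calls were rare for any miRNA: the spiral colon had the most, 3 of 334 miRNAs (0.898%), followed by the distal jejunum with 2 of 338 (0.592%). The duodenum had 1 of 341 (0.293%), the cecum 1 of 342 (0.292%), the proximal jejunum 1 of 355 (0.282%) and the descending colon none (0%). In the descending colon 0 of 331 miRNAs passed, 10 reached an unadjusted p under 0.05, and 0 were called by limma-voom, by DESeq2 or by the exact test in edgeR. At an unadjusted p under 0.05 by edgeR, 1 of the 18 values of members and regions passed, bta-miR-152 in the proximal jejunum. Among all miRNAs tested, 39 of 355 did so in the proximal jejunum, 15 of 341 in the duodenum and 34 of 338 in the distal jejunum. In the cecum 27 of 342 did so, and in the spiral colon 29 of 334. The exact test, DESeq2 and limma-voom called 0 members in every region. The SS and NS values overlapped for all 3 members in all 6 regions. The share of all miRNAs without such an overlap was not computed by region, so this is a description only.

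For bta-miR-148a the log2 fold change of SS over NS was near 0 in every region. It was 0.18 (SE 0.42, adjusted p = 0.957 by edgeR) in the duodenum, with a 95% confidence interval of -0.73 to 1.08, and lay between -0.13 and 0.05 in the other 5 regions. The duodenum means were 62148 ± 36883 CPM in SS and 47798 ± 26066 CPM in NS steers (SD, n = 5 each), and without steer SS299 the log2 fold change there was -0.09. The tightest interval was in the spiral colon, where SS steers held 14090, 19591 and 27363 CPM (lowest, median and highest) and NS steers 13309, 13982 and 21832 CPM, with a log2 fold change of 0.05 and an interval of -0.41 to 0.50. The jejunal estimates, -0.10 and -0.11, turned to 0.05 in both without SS299, the steer with few epithelial miRNAs there.

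For bta-miR-148b all 6 regional fold changes were above 0, at 0.10, 0.32, 0.04, 0.29, 0.17 and 0.16 on the log2 scale in intestinal order, with adjusted p between 0.505 and 0.992 by edgeR. The cecum may serve as an example. SS steers held 604, 420, 527, 767 and 549 CPM (SS274, SS287, SS294, SS299 and SS310), against 653, 309, 315, 425 and 214 CPM in NS steers (NS108, NS152, NS165, NS242 and NS745). The NS group overlapped the SS group through steer NS108 and NS242, and the log2 fold change was 0.29 (SE 0.19, 95% confidence interval -0.12 to 0.70, adjusted p = 0.623 by edgeR). In the distal jejunum the sign depended on scaling, being 0.04 with TMM and -0.32 with library size alone.

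For bta-miR-152 the small intestine gave the widest separations. In the proximal jejunum SS steers held 166, 147, 182, 268 and 175 CPM (SS274, SS287, SS294, SS299 and SS310), against 159, 141, 120, 162 and 131 CPM in NS steers (NS108, NS152, NS165, NS242 and NS745). Of the SS values, 4 lay above the highest NS value and the lowest, SS287, within the NS range. The log2 fold change was 0.91 (SE 0.41, 95% confidence interval 0.0041 to 1.82, unadjusted p = 0.0491, adjusted p = 0.447 by edgeR), and 0.30 (adjusted p = 0.612) without SS299. In the duodenum it was 0.79 (95% confidence interval -0.11 to 1.69, adjusted p = 0.882) with all steers and 0.17 without SS299, and in the distal jejunum 0.82 (95% confidence interval -0.18 to 1.81, adjusted p = 0.517) with all steers and 0.35 without it. These values thus moved by more than 1.5 times with 1 steer in each region of the small intestine. Scaling bore on them too. With library size alone the log2 fold changes of bta-miR-152 were 0.40 and 0.16 at the upper and lower jejunal sites and 1.08 in the duodenum. The regional tests took TMM factors from the libraries of each region alone, and those factors are not given here. With factors from all 60 libraries, that of the SS299 distal jejunum, 0.353, was the lowest (median 1.05). Its 183 CPM of bta-miR-152 became 518 on that scale.

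In the large intestine the bta-miR-152 fold changes were 0.06 (cecum), 0.16 (spiral colon) and -0.13 (descending colon). The last had the widest interval of all comparisons, -2.06 to 1.80. SS steers held 0, 171, 264, 275 and 133 CPM (SS274, SS287, SS294, SS299 and SS310), against 149, 139, 99.1, 395 and 103 CPM in NS steers (NS108, NS152, NS165, NS242 and NS745). Without SS274 the log2 fold change was 0.17. The SS274 library held 4422528 miRNA counts, the 4th highest total of its region, so that 3 counts, the limit a count of 0 allows, correspond to 0.678 CPM, at least 146-fold lower than the lowest other descending colon library (99.1 CPM). It was the only library of 60 without a bta-miR-152 count. The limit covers counting error only.

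**Figure D3:**
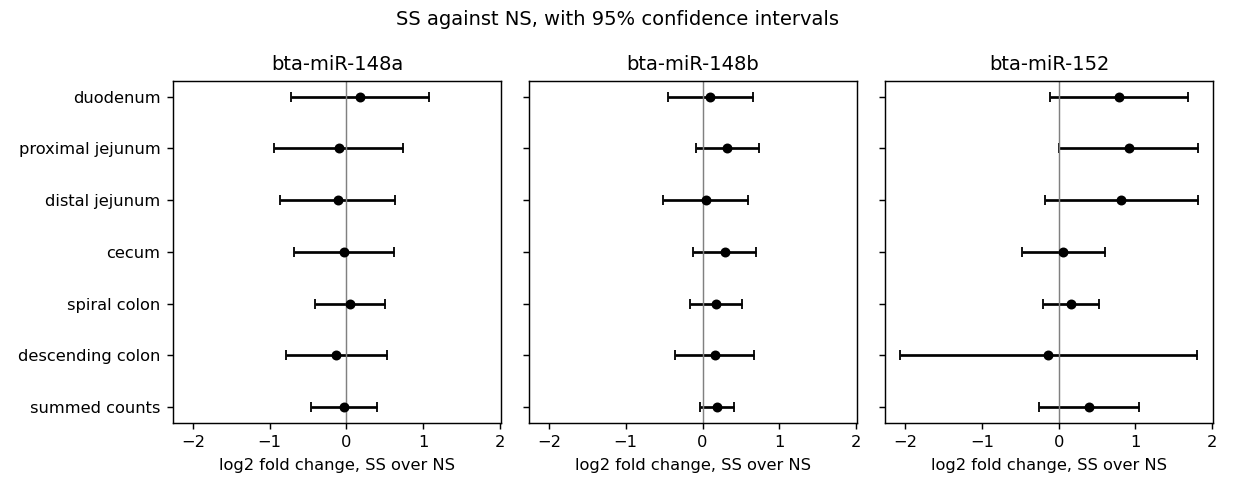
Log2 fold change of SS over NS for each member in the 6 regions and on counts summed over a steer's 6 libraries (points), with 95% confidence intervals from edgeR (lines) and 0 marked in grey. All intervals but that of bta-miR-152 in the proximal jejunum (0.0041 to 1.82) include 0, and no value passes an FDR of 10%.

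With the steer's 6 libraries summed, 1 value remained per animal, from totals of 10510010 to 27672765 counts in SS and 8167847 to 26973603 counts in NS steers. None of the 3 members passed, against 0.583% of all 343 miRNAs tested. No member had an unadjusted p under 0.05 by edgeR, against 35 of the 343. bta-miR-148a had 18626 ± 2718 CPM in SS and 18665 ± 5283 CPM in NS steers (SD, n = 5 each), with a log2 fold change of -0.03 and a 95% confidence interval of -0.46 to 0.39. bta-miR-148b had 443, 595, 553, 403 and 496 CPM in SS274, SS287, SS294, SS299 and SS310, against 421, 388, 363, 571 and 400 CPM in NS108, NS152, NS165, NS242 and NS745. Only NS242 and NS108 lay above the lowest SS steer, SS299, and the log2 fold change was 0.19 (SE 0.10, 95% confidence interval -0.03 to 0.41, adjusted p = 0.567 by edgeR), with a range of 0.15 to 0.21 over the omission of each steer. bta-miR-152 had 187 ± 66.7 CPM in SS and 146 ± 18.9 CPM in NS steers, with a log2 fold change of 0.40 (95% confidence interval -0.26 to 1.05, adjusted p = 0.709 by edgeR), and of -0.01 without SS299.

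When each region counted alike, by averaging log2 TMM CPM over the 6 regions of a steer, bta-miR-148b separated the phenotypes. The steer means, as geometric means of TMM CPM, ran between 505 and 570 in SS and between 475 and 495 in NS steers. That summary was looked at after its values were seen, and such a separation in either direction occurred for 3.04% of 329 miRNAs and with SS higher for 1.52%. The gap between the lowest SS and the highest NS mean was 0.03 on the log2 scale, and the difference of the means 0.15. As plain means of CPM without TMM scaling, the steers overlapped, at 509 to 697 CPM in SS and 403 to 637 CPM in NS steers. The model over all libraries with the steer as block gave a log2 fold change of 0.19 and an adjusted p of 0.479 (limma-voom). bta-miR-148a and bta-miR-152 did not separate in this way.

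The difference between SS and NS steers was also compared between regions, in a model that kept each steer as a block. None of the 3 members passed (F 0.156, 0.246 and 0.731, adjusted p = 0.998, 0.997 and 0.960 by edgeR for bta-miR-148a, bta-miR-148b and bta-miR-152), against 0% of 381 miRNAs, of which 11 had an unadjusted p under 0.05. The larger fold changes of bta-miR-152 in the small intestine than in the large intestine were therefore not shown to differ.

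Steers of one phenotype differed from each other in 2 of the 3 members, by the F test of edgeR over the 6 regions of each steer, against 40.2% of 381 miRNAs tested. bta-miR-152 passed with F 3.29 (adjusted p = 0.0207) and bta-miR-148a narrowly with F 2.25 (adjusted p = 0.0984), while bta-miR-148b did not pass (F 0.260, adjusted p = 0.986). For bta-miR-152 the geometric means of TMM CPM over the 6 regions were 63.2, 132, 190, 377 and 187 in SS274, SS287, SS294, SS299 and SS310, against 146 to 160 in the 5 NS steers. The low mean of SS274 rested on the 0 of its descending colon, and over its other 5 regions it was 147. SS287 lay below the NS range, and SS294, SS310 and SS299 above it, SS299 also without its duodenum (333). Over its cecum and spiral colon alone the mean of SS299 was 211, which the NS range over 6 regions does not match. In the cecum and spiral colon SS299 held 230 and 194 TMM CPM, against at most 196 and 186 in NS steers. SS310 held 206 and 225 TMM CPM there. The call was lost without steer SS299 (adjusted p = 0.823), and without the SS299 duodenum library alone the adjusted p was 0.0804. On the CPM scale SS299 was above the highest NS value of bta-miR-152 in 4 of 6 regions, not in the distal jejunum and descending colon, and on the TMM scale in 6 of 6. For bta-miR-148a the steer means ran between 15242 and 23731 in SS and between 14586 and 24857 in NS steers, and the call was lost without any 1 of NS108, NS152, NS165, NS745, SS287 and SS310 (adjusted p up to 0.272). With library size alone as the scaling neither member passed (adjusted p = 0.924 for bta-miR-148a and 0.282 for bta-miR-152).

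**Figure D4:**
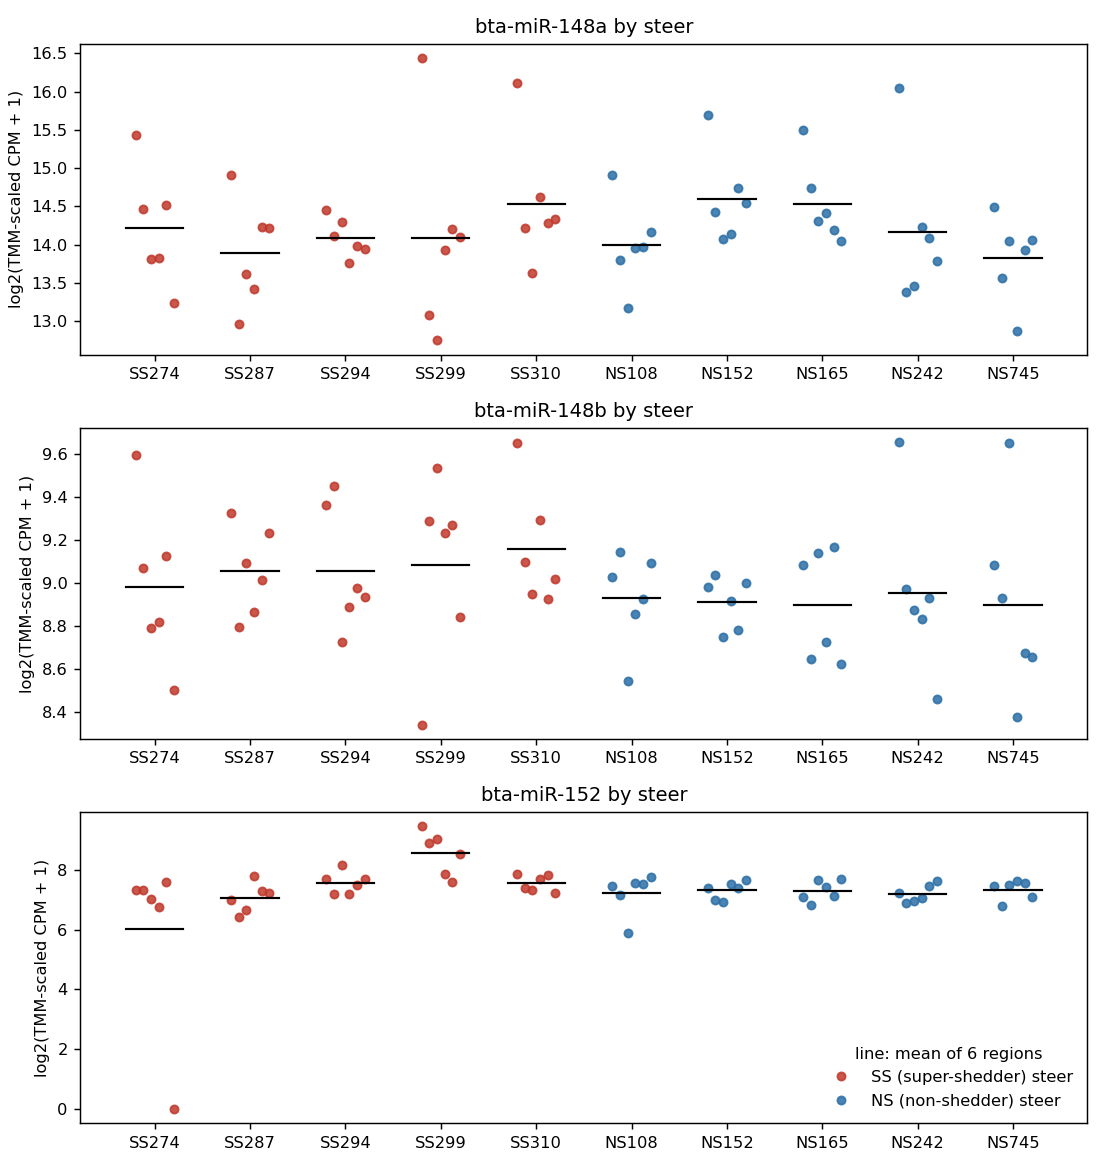
Log2 of TMM-scaled CPM plus 1 for each member in the 6 libraries of every steer, SS steers (red) left of NS steers (blue), regions in intestinal order within a steer and a line at the mean of the 6. For bta-miR-152 SS299 has the highest line and SS274 the lowest, with its point at 0, while the 5 NS lines lie close together; for bta-miR-148b the SS lines lie above the NS lines by at least 0.03.

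Markers of other cell types were compared in the same fits. None of the 8 epithelial and none of the 5 smooth muscle miRNAs passed in any region or on summed counts. In the proximal jejunum, where bta-miR-152 differed most, all 8 epithelial fold changes were below 0 (median -0.92 on the log2 scale) and all 5 smooth muscle fold changes above 0 (median 1.05), against a median of 0.11 over all 355 miRNAs tested. The epithelial sum ran between 1512 and 210072 CPM in SS and between 135914 and 294563 CPM in NS steers there, and the smooth muscle sum between 423538 and 595667 CPM in SS and between 316095 and 503079 CPM in NS steers. The group medians were close, at 188547 CPM in SS and 187883 CPM in NS steers for the epithelial sum and at 455304 CPM in SS and 444762 CPM in NS steers for the smooth muscle sum. Without steer SS299 the proximal jejunum medians were -0.59 for the epithelial list, with 0 of 8 above 0, and 0.06 for the smooth muscle list, against 0.07 over all 347 miRNAs tested. In the distal jejunum the 5 smooth muscle fold changes were also above 0 (median 1.098), and without SS299 4 of 5 were (median 0.21). In the duodenum, where bta-miR-152 was 0.79, the smooth muscle median was -0.55, and -0.24 without SS299. Of the remaining lists, 1 erythrocyte miRNA was lower in SS steers in the spiral colon, and leukocyte, endothelial and neuronal lists had no call. The 3 pancreatic miRNAs summed to at most 12.7 CPM in the duodenum. The part of tissue composition in the bta-miR-152 values was not tested.

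Other miRNAs reported in human cells to act on DNA methyltransferases or chromatin enzymes (the miR-29 and miR-26 families, miR-185, miR-342, miR-101 and miR-449a, 12 in the table) also had no call in any region or on summed counts. On summed counts 9 of the 11 tested had a fold change above 0, with a median of 0.10, against a median of 0.0029 over all 343 miRNAs. The largest was bta-miR-29d-3p, a member of the miR-29 family, with a log2 fold change of 0.68 (adjusted p = 0.475 by edgeR). In the proximal jejunum bta-miR-185 had 0.92 (adjusted p = 0.317 by edgeR) and bta-miR-29a -0.53 (adjusted p = 0.461 by edgeR). By region, fold changes were above 0 for 10 of 11 in the duodenum (median 0.26, against 0.0043 over all miRNAs tested), 7 of 11 in the proximal jejunum (0.10, against 0.11), 11 of 11 in the distal jejunum (0.25, against 0.06), 7 of 11 in the cecum (0.04, against -0.01), 4 of 11 in the spiral colon (-0.09, against -0.03) and 9 of 10 in the descending colon (0.22, against 0.04). Without steer SS299 the counts above 0 were 8, 7, 9, 6 and 3 of 11 and 4 of 10 in the same order. These counts are not of independent miRNAs. For example, bta-miR-26a and bta-miR-26c had 0.44 and 0.45 in the duodenum, 0.52 and 0.53 in the distal jejunum, and -0.36 and -0.35 in the cecum.

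The miRNAs with profiles most like each member were ranked by Pearson's r of log2 TMM CPM over the 60 libraries, among 328 others. For bta-miR-148a they were bta-miR-186 (0.71), bta-miR-26b (0.53), bta-miR-6524 (0.49), bta-miR-2284ac (0.49) and bta-miR-182 (0.49). Over the 58 libraries without the SS299 duodenum and SS274 descending colon, bta-miR-186 stayed first (0.74), followed by bta-miR-153 (0.74), bta-miR-669 (0.57), bta-miR-375 (0.57), a miRNA of endocrine cells, and bta-miR-182 (0.56). The enterocyte miRNA bta-miR-192 came 7th over 60 libraries (r 0.46) and 19th over 58 (r 0.45). Over the 55 libraries bta-miR-186 (0.77) and bta-miR-153 (0.76) were again closest and bta-miR-192 came 24th (0.43). For bta-miR-148b the closest was bta-miR-7 (0.53) over 60 libraries, bta-miR-98, a let-7 family member, over 58 (0.57), and bta-miR-21-5p over 55 (0.63).

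bta-miR-152 had 1 very close neighbour, bta-miR-2957, whose annotated gene lies within MIR152. Their r was 0.95 over 60 libraries, 0.91 over 58 and 0.85 over 55, and the next miRNA reached 0.40 (bta-miR-495), 0.78 (bta-miR-204) and 0.64 (bta-miR-127). There were 3.31 ± 0.597 counts of bta-miR-152 per count of bta-miR-2957 over 59 libraries, with a lowest ratio of 2.26 and a highest of 5.38, while bta-miR-152 itself ran between 99.1 and 961 CPM in them. In the SS274 descending colon bta-miR-2957 had 1 count (0.226 CPM, exact Poisson 95% interval 0.0057 to 1.26), against 25.1 to 73.5 CPM in the other 9 descending colon libraries. Of 169 miRNAs with an expectation of at least 100 counts in that library from the median of its region, bta-miR-152 and bta-miR-2957 were the only 2 below 1% of it, and the next lowest was bta-miR-215, an epithelial miRNA, at 4.57%. In the SS299 duodenum both were at their highest of all libraries, 961 CPM of bta-miR-152 and 268 CPM of bta-miR-2957. The rows share a locus, so they cannot be taken as independent measurements.

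**Figure D5:**
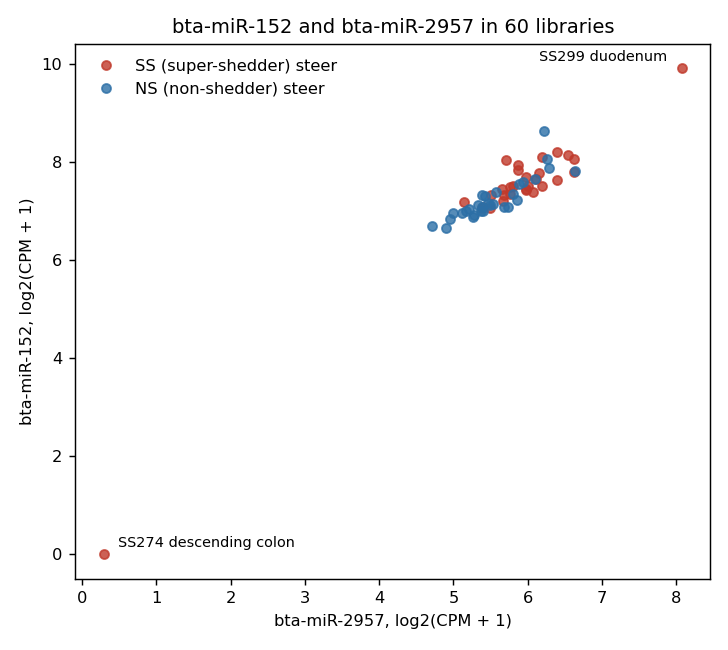
bta-miR-152 against bta-miR-2957, each as log2(CPM + 1), in 60 libraries of SS (red) and NS (blue) steers. The points follow 1 line, with the SS299 duodenum at its upper end (961 and 268 CPM) and the SS274 descending colon alone at the lower left (0 and 0.226 CPM).

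Over the 58 libraries bta-miR-152 was followed by bta-miR-204 (0.78), bta-miR-100 (0.76), bta-miR-127 (0.76) and bta-miR-99a-5p (0.74), and it ran against bta-miR-192 (r -0.63) and with bta-miR-143 (r 0.47). Over all 60 its r with bta-miR-192 was -0.12 and with bta-miR-143 -0.07, and over 55 they were -0.20 and 0.38, so the relation to bta-miR-192 at -0.63 rests on the choice of libraries. For bta-miR-148a the r with bta-miR-192 was 0.46 over 60 libraries, 0.45 over 58 and 0.43 over 55. With bta-miR-143 it was -0.21, -0.05 and 0.08 in the same order, so its sign also rested on the choice of libraries. All these values come from log values of shared libraries and are given without p.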

How the data were processed

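Small-RNA libraries (TruSeq kit, Illumina HiSeq, single-end reads) from 10 steers and 6 regions were processed by the authors with sRNAtoolbox and its defaults, and the labels also name Bowtie and edgeR without versions. The genome build was not given in the sources used here. Raw miRNA read counts per library were deposited by the authors and used unchanged, with 0 columns left out. Samples were grouped by phenotype and region from their titles. SS was compared with NS by the quasi-likelihood test of edgeR 4.0.16 (R 4.3.3) on TMM-scaled counts, with miRNAs of CPM above 1 in at least 3 steers of either phenotype, Benjamini-Hochberg adjustment over all miRNAs tested and an FDR of 10%. The study used the exact test of edgeR, run here as an alternative beside DESeq2 1.42.0 and limma 3.58.1. Sums over regions, the phenotype by region terms (steer as block) and steer terms were fitted likewise. The steer number pairs libraries of 1 animal: deviations of same-steer libraries had a mean r of 0.14 over 150 pairs. Log levels used a pseudocount of 1. The 3 members are reported in every comparison, and the 5 closest miRNAs to each by r. Members and lists were chosen with earlier results of these data known. The scripts were tested on simulated data. No 2 replicate libraries agreed within sampling noise (lowest chi-square per degree of freedom 43.9 over 120 pairs).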

Additional observations from a re-analysis of the deposited data

Results flagged for a closer look

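Each of the 36 sets of 5 libraries (a member, a region and a phenotype) was searched for a value far from the other 4 by Dixon's test at its 95% critical value. Of these, 4 had one, where chance gives about 1 in 20, or 1.8 of 36, and all 4 were high values of bta-miR-152. The 1.8 assumes normally distributed values in independent sets, whereas these sets share libraries and steers, so it is a rough guide only. The SS299 duodenum held 961 CPM, the next SS duodenum library 223 CPM. The SS299 proximal jejunum held 268 CPM, the next SS library 182 CPM, and passed narrowly (Dixon ratio 0.7112, critical value 0.71). The NS108 cecum held 267 CPM, the next NS library 128 CPM. The NS242 descending colon held 395 CPM, the next NS library 149 CPM. The 0 of the SS274 descending colon was not past the critical value, because the remaining SS libraries there were spread between 133 and 275 CPM. On the TMM scale 5 of the 36 sets had such a value, and only those of SS299 in the duodenum (701) and proximal jejunum (481) were shared with the CPM scale. NS108 in the cecum (189 TMM CPM) and NS242 in the descending colon (196 TMM CPM) were not the highest NS libraries there, which were NS745 (196) and NS108 (216). The others past the critical value on the TMM scale were high values of bta-miR-148a in the NS152 spiral colon (27273) and of bta-miR-148b in the NS242 duodenum (804), and a low value of bta-miR-152 in the NS745 descending colon (136).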

How the results depend on the processing

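No member was called between SS and NS steers, or in the comparison of that difference between regions, under any test, scaling, filter, threshold or omission of a steer or library that was run. Directions of fold changes near 0 did turn: with library size alone the log2 fold change of bta-miR-148b in the distal jejunum was -0.32 and that of bta-miR-148a in the cecum 0.25, with all libraries in one fit bta-miR-148a in the cecum was 0.000378, with filterByExpr bta-miR-152 in the cecum was -0.0036, and without the SS274 descending colon library bta-miR-148a on summed counts was 0.000318. Over the omission of each steer, the log2 fold changes that crossed 0 ran between -0.089 and 0.39 (duodenum), -0.30 and 0.15 (proximal jejunum), -0.35 and 0.054 (distal jejunum), -0.23 and 0.060 (cecum), -0.028 and 0.23 (spiral colon), -0.26 and 0.037 (descending colon) and -0.15 and 0.095 (summed counts) for bta-miR-148a, between -0.089 and 0.24 (distal jejunum) for bta-miR-148b, and between -0.088 and 0.23 (cecum), -0.61 and 0.17 (descending colon) and -0.013 and 0.52 (summed counts) for bta-miR-152. limma-voom gave bta-miR-152 in the descending colon -1.82. Between steers, 0 members passed with library size alone, 1 at an FDR of 5%, and 1 to 2 over the omission of each steer. With the steer as replicate block over all libraries the summed comparison gave -0.02, 0.19 and 0.07 for bta-miR-148a, bta-miR-148b and bta-miR-152, and without the block the regional comparison gave F 0.165, 0.282 and 0.670; the block changed no call of a member. Over all miRNAs, calls in the duodenum, distal jejunum, cecum, spiral colon and on summed counts numbered 3, 8, 3, 4 and 15 by the exact test and 4, 14, 4, 7 and 14 by DESeq2, against 1, 2, 1, 3 and 2 here, and 0 by limma-voom. The cause of these differences was not tested. The log2 ratio of the duodenum to the other regions stayed above 0 under every scaling and omission run, at 1.43 to 1.81 for bta-miR-148a. Leaving out single libraries was chosen after seeing the data. With 5 steers a group, the widest 95% interval, that of bta-miR-152 in the descending colon, ran between -2.06 and 1.80, and p-values treat the steers as the replicates. The lowest bta-miR-152 count above 0 was 61.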
